A study of Mus musculus with 4 samples.

Results

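The NF-kB transcription factors, their inhibitors and their feedback genes were examined in bone marrow macrophages (BMMs) induced towards osteoclasts with RANKL. The group was defined by name as 10 genes, namely the subunit genes Rela, Rel, Relb, Nfkb1 and Nfkb2, the inhibitor Nfkbia, the nuclear regulators Nfkbiz and Bcl3, and the feedback genes Tnfaip3 and Traf1. All 10 were found among the 34745 mouse genes of the deposited table, and all 10 passed the filter on low counts that left 12590 genes for testing. BMMs are macrophages grown from bone marrow, here from wild-type C57BL/6 mice of 8 weeks. After 12 h of serum deprivation (no FBS) the cells received complete medium for 24 h. It held 100 ng/mL RANKL together with either dimethyl itaconate (RANKL+DI) or vehicle (RANKL+Veh, DMSO in the labels), with 2 libraries in each group. Dimethyl itaconate (DI) is a methyl ester form of itaconate, a metabolite that macrophages make from the Krebs cycle. The labels give its dose as 20 mM and the paper as 20 μM. Every culture received RANKL, so no unstimulated level was measured here. The labels do not say whether libraries with the same treatment came from separate cultures or mice, so that p-values measure only the spread between these libraries.

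NF-kB dimers are held in the cytoplasm by IkB proteins. RANKL binds its receptor RANK on the precursor, TRAF adaptors pass the signal to the IkB kinases, IkBα is degraded, and dimers of RelA or c-Rel with p50 enter the nucleus. In a slower second arm, the p100 protein is cut to p52, which pairs with RelB. Many NF-kB genes are themselves targets of NF-kB: IkBα, p100, RelB, A20 and TRAF1 are made again after activation, and several of them restrain the pathway. NF-kB is needed for osteoclast formation, where it acts early on Nfatc1. Only RNA was measured in these libraries, and phosphorylation, degradation or nuclear entry of the proteins cannot be read from it.

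The promoters are shown first because NF-kB genes are known for controlling one another. RefSeq promoter sequences (250 bases before to 50 bases after a start site, GRCm38.p6) were found for 7 of the 10 genes, with 10 promoters in all. They were searched on both strands for the 10-base NF-kB consensus, which was present in 7 of those 10 promoters and in 8.46% of all 32851 mouse promoters of this length. All 3 promoters of Nfkb2 held a match. The windows of its later promoters (chr19:46305445-46305744 and chr19:46305680-46305979) overlap and hold the same GGGACTTTCC, so the 7 promoters are not all separate. The 5 genes with a match were Nfkbia, Nfkb2, Bcl3, Rel and Tnfaip3, and no match was found in the windows of Traf1 and Rela. Relb, Nfkb1 and Nfkbiz were not matched to a promoter. A match is a stretch of letters and not a measured binding site. The 250 bases before the start site are printed below 5′ to 3′ on the strand of the gene for the inhibitor Nfkbia (chr12:55492648-55492897, minus strand), for the first of the 3 Nfkb2 promoters (chr19:46304487-46304736, plus strand) and for Traf1 (chr2:34961773-34962022, minus strand), the gene with the lowest log2 fold change of the 10. Capitals mark the bases of a match on either strand.
Nfkbia promoter: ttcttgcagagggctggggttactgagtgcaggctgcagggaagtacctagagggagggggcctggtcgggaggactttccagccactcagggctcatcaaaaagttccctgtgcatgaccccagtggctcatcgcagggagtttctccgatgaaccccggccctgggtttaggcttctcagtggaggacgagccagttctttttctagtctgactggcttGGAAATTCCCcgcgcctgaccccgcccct
Nfkb2 promoter: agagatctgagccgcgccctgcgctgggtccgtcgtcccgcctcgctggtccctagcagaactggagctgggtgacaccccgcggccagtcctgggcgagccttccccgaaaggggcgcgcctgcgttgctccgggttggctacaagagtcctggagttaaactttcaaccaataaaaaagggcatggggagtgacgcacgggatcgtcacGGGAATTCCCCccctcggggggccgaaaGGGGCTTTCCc
Traf1 promoter: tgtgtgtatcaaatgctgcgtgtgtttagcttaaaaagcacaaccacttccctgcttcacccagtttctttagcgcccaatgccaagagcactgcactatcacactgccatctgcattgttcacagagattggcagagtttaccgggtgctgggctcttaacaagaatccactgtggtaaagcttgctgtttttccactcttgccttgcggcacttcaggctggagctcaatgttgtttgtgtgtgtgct
In the Nfkbia promoter the capitals read GGGAATTTCC on the opposite strand, beginning 29 bases before the start. The Nfkb2 promoter held 3 overlapping or neighbouring matches, with GGGAATTCCC beginning 39 bases and GGGGCTTTCC beginning 11 bases before the start. The match in Bcl3 (GGGAAGTCCC) began at base 3 of the transcript, and those of Tnfaip3 were GGGACACCCC, beginning 125 bases before the start, and GGGGATTTCC on the opposite strand, beginning 12 bases before it.

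RNA of 5 of the 10 genes was lower with DI and none was higher by the edgeR quasi-likelihood test, at a threshold of 0.05 on p-values adjusted by Benjamini-Hochberg over all 12590 tested genes. The 5 genes were Nfkb2, Nfkbia, Nfkbiz, Bcl3 and Traf1. Of all tested genes, 7.70% were called lower and 7.14% were called higher. In 8 of the 10 genes both RANKL+DI libraries lay below both RANKL+Veh libraries, against 29.6% of all tested genes. The median log2 fold change over the 10 genes was -0.29, and over all tested genes it was 0.0012. Because the 10 genes were chosen with earlier results of these data known, these values describe them and test no excess. Levels are given as TMM-scaled CPM, that is, counts relative to the scaled library total, unless another scale is named, and fold changes are those of RANKL+DI against RANKL+Veh. The count of 5 depended on the scaling and on single libraries: it was 8 with scaling by library size only and 2 without RANKL+Veh replicate 1. Scaling by library size only moved the median log2 fold change of all genes to -0.10 and that of the 10 genes to -0.40, and turned the split of all called genes from 969 lower and 899 higher to 1932 lower and 548 higher.

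**Figure D1:**
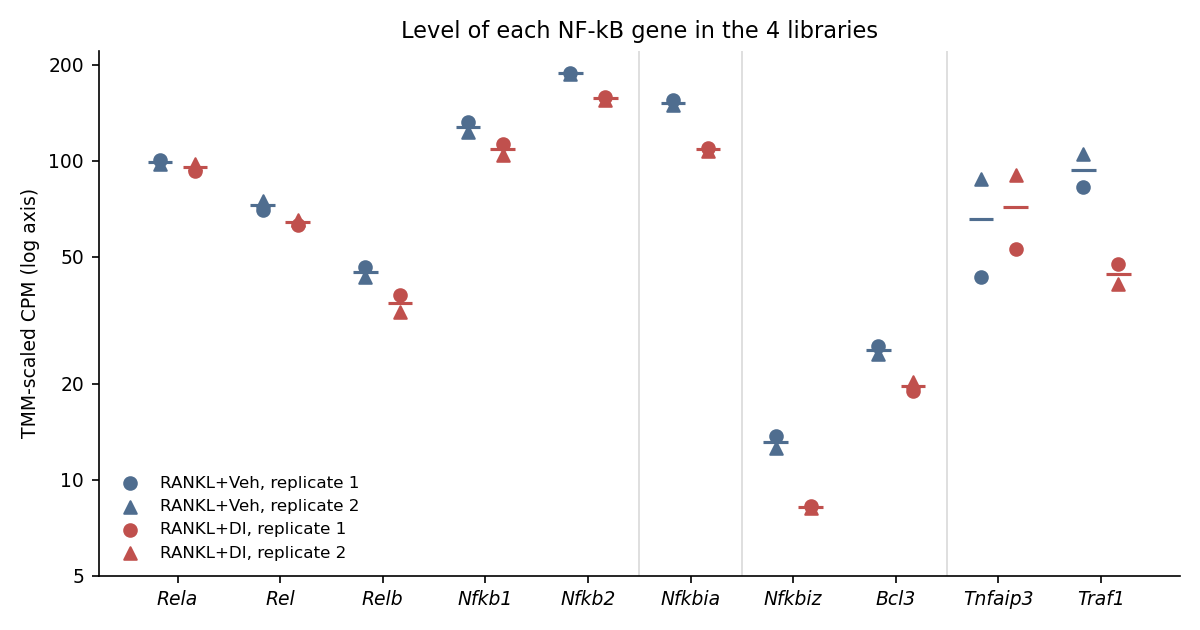
Level of each gene in each of the 4 libraries, as TMM-scaled CPM on a log axis, with circles for replicate 1, triangles for replicate 2 and a line at the mean of the group. The RANKL+DI points lie below the RANKL+Veh points in 8 of the 10 genes, Rela overlaps, and the libraries of Tnfaip3 are far apart within both groups.

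Rela, which encodes the p65 subunit and carries a transactivation domain (chr19:5637483-5648130), stood at 92.8 and 97.8 CPM in RANKL+DI and at 100.4 and 97.8 CPM in RANKL+Veh. The groups overlapped. The log2 fold change was -0.06 ± 0.053 (SE, n = 2 per group) with an adjusted p of 0.534 by edgeR, and its 95% interval ran from -12.1% to 5.21%. Rel encodes c-Rel (chr11:23736847-23770970) and stood at 62.8 and 65.3 CPM in RANKL+DI and at 70.2 and 74.5 CPM in RANKL+Veh. The RANKL+DI libraries were the lower pair, with a log2 fold change of -0.18 ± 0.063 (SE) that did not pass the test (adjusted p 0.124, edgeR). It passed with library size only (adjusted p 0.0306).

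The gene of the p50 precursor, Nfkb1 (chr3:135584655-135691547), stood at 113 and 104 CPM in RANKL+DI and at 132 and 123 CPM in RANKL+Veh. Its log2 fold change was -0.24 ± 0.063 (SE), with an adjusted p of 0.0607 by edgeR. Relb, the partner of p52 in the slower arm (chr7:19606217-19629438), stood at 38.0 and 33.4 CPM in RANKL+DI and at 46.4 and 43.2 CPM in RANKL+Veh. Its log2 fold change was -0.33 ± 0.087 (SE), with an adjusted p of 0.0588 by edgeR. The groups of both genes were separate, and both stood just above the threshold. Of the 11 alternatives, 7 gave no call for either gene. Among these were the DESeq2 Wald test (adjusted p 0.0708 for Nfkb1 and 0.0829 for Relb), edgeR's exact test (0.14 and 0.0751) and limma-voom (0.0569 and 0.0549). Both passed with no filter on low counts (0.0337 and 0.0333), with library size only (0.0155 and 0.0204) and with the replicate number as a block (0.0458 and 0.0483). They also passed without RANKL+DI replicate 1, but not without any other library. With each library left out in turn, the log2 fold change ran from -0.29 to -0.17 for Nfkb1 and from -0.42 to -0.23 for Relb.

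Nfkb2 encodes p100, the precursor of p52, which also acts as an inhibitor before it is cut (chr19:46304737-46312090). It stood at 158 and 155 CPM in RANKL+DI and at 189 and 186 CPM in RANKL+Veh, which made it the subunit gene with the most reads. Nfkb2 fell by 16.6%, with a log2 fold change of -0.26 ± 0.041 (SE) and an adjusted p of 0.0112 by edgeR. The call was lost without RANKL+Veh replicate 1, at an adjusted p of 0.0516. Exons of Nfkb2 are shared with Psd on the opposite strand over 6.52% of their length, and Psd itself had 472 counts in the 4 libraries together. Another 11.6% is shared with AC114539.1, also on the opposite strand. These shares are of the exons in GENCODE M21, where Nfkb2 spans chr19:46304320-46312385. The deposited position is shorter, so the shares need not hold for the exons that were counted. Among the 5 subunit genes, Nfkb2 was thus the one past the threshold, and whether its change differed from that of the other subunit genes was not tested.

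Nfkbia encodes IkBα, the inhibitor that is degraded on activation and made again by NF-kB itself (chr12:55489411-55492647). It stood at 110 and 107 CPM in RANKL+DI and at 155 and 149 CPM in RANKL+Veh. The libraries of each group were close to each other, and the groups did not overlap. Nfkbia fell by 28.6% (95% interval -33.8% to -23.0%), with a log2 fold change of -0.49 ± 0.044 (SE) and an adjusted p of 0.00233 by edgeR. The log2 fold change stayed between -0.59 and -0.46 under all 11 alternatives run, each of which kept the call.

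Nfkbiz encodes IkBζ, a nuclear IkB protein that acts with NF-kB at a second wave of target genes (chr16:55811375-55838899). Its counts were 142 and 153 in RANKL+DI and 255 and 209 in RANKL+Veh, so that it had the fewest reads of the 10 genes. These are 8.27 and 8.16 CPM with DI and 13.7 and 12.5 CPM with vehicle. Nfkbiz fell by 37.4%, with a log2 fold change of -0.68 ± 0.114 (SE) and an adjusted p of 0.0147 by edgeR, and the call was lost without RANKL+Veh replicate 1 (adjusted p 0.0726). Of 6 genes known to need IkBζ in macrophages, 2 could be tested. Il12b, Csf2 and Csf3 had no count in any library. Cebpd, a transcription factor gene, rose (log2 fold change 0.45, SE 0.102), while Lcn2 gave -0.04. Exons of Cebpd (1019 counts in all) overlap those of Spidr (2685 counts) on the opposite strand, and with no strand setting named for the counting, reads of the pair cannot be told apart.

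Bcl3, the second nuclear IkB protein gene, which binds p50 and p52 homodimers (chr7:19808462-19822770), stood at 18.99 and 20.3 CPM in RANKL+DI and at 26.3 and 24.7 CPM in RANKL+Veh. It fell by 22.9%, with a log2 fold change of -0.38 ± 0.088 (SE) and an adjusted p of 0.0401 by edgeR. This call was the least firm of the 5. It was lost without any 1 of the 4 libraries, at adjusted p-values from 0.0778 without RANKL+DI replicate 2 and 0.0817 without RANKL+Veh replicate 2 to 0.136 without RANKL+Veh replicate 1 and 0.152 without RANKL+DI replicate 1. It was also lost in the DESeq2 Wald test (0.0926) and with the replicate number as a block (0.0792), while the direction was the same in all of them.

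Traf1 encodes a TRAF adaptor without a RING domain that is induced by NF-kB (chr2:34941750-34961772). It stood at 47.3 and 41.0 CPM in RANKL+DI and at 82.8 and 104.7 CPM in RANKL+Veh. Traf1 fell by 52.9% (95% interval -62.2% to -41.3%), with a log2 fold change of -1.09 ± 0.129 (SE) and an adjusted p of 0.00491 by edgeR. The 2 RANKL+Veh libraries differed more than those of RANKL+DI, but the lowest of them was still above both RANKL+DI libraries. All 11 alternatives kept the call, with log2 fold changes from -1.25 to -0.91. Its promoter, printed above, was 1 of the 3 without a match to the consensus.

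**Figure D2:**
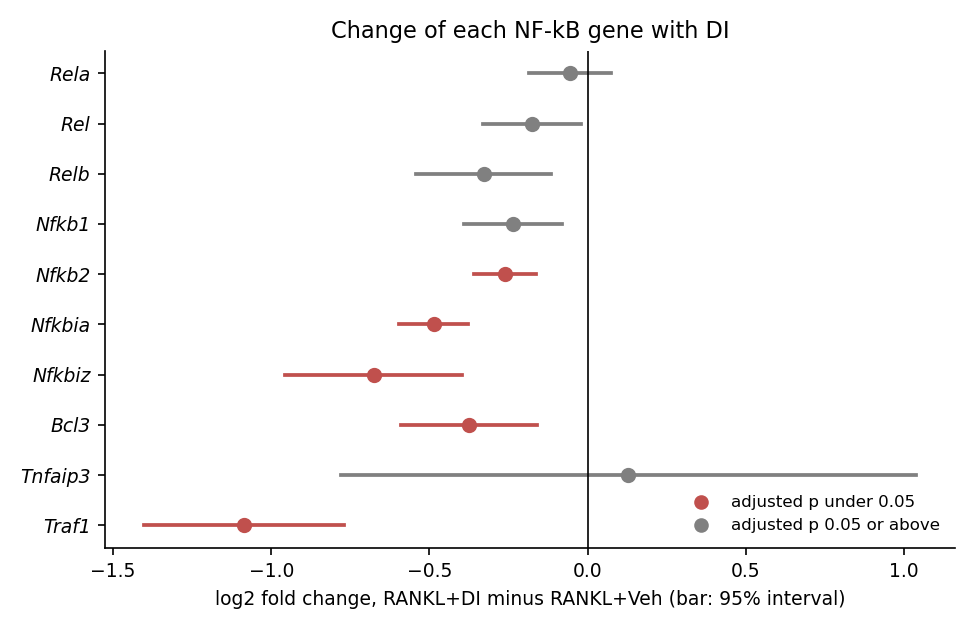
Log2 fold change of each gene (x axis, RANKL+DI minus RANKL+Veh) with its 95% interval, in red for an adjusted p under 0.05. Traf1 has the lowest value at -1.09, Nfkbiz, Nfkbia, Bcl3 and Nfkb2 follow in red, and the interval of Tnfaip3 runs from -0.78 to 1.04.

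Tnfaip3 encodes A20, an enzyme that edits ubiquitin chains and ends NF-kB signaling (chr10:19000910-19015657). It stood at 52.8 and 90.1 CPM in RANKL+DI and at 43.3 and 87.8 CPM in RANKL+Veh. Replicate 2 was 1.70-fold above replicate 1 in RANKL+DI and 2.03-fold above it in RANKL+Veh, on 907 and 1690 counts with DI and 806 and 1463 counts with vehicle. The ranges of the groups overlapped. The log2 fold change was 0.13 ± 0.371 (SE), with an adjusted p of 0.859 by edgeR, and the 95% interval from -41.8% to 105% includes the changes of the 5 genes called lower except that of Traf1. The sign turned without RANKL+DI replicate 2 (-0.31) and without RANKL+Veh replicate 1 (-0.30). A change of Tnfaip3 was thus not detectable with these libraries.

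Such a gap was rare. Among 9274 genes with an average log2 CPM above 3, 16 genes (0.173%) had replicate 2 above replicate 1 in both groups, or below it in both groups, by more than 0.6 on the log2 scale, with 8 genes each way. Tnfaip3 was the 10th of the 9274 genes by the smaller of its 2 gaps. In the other 9 NF-kB genes the ratio of replicate 2 to replicate 1 lay between 0.867 and 1.265, and both of these values were of Traf1. The labels do not say that equal numbers mark a shared culture or day.

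**Figure D3:**
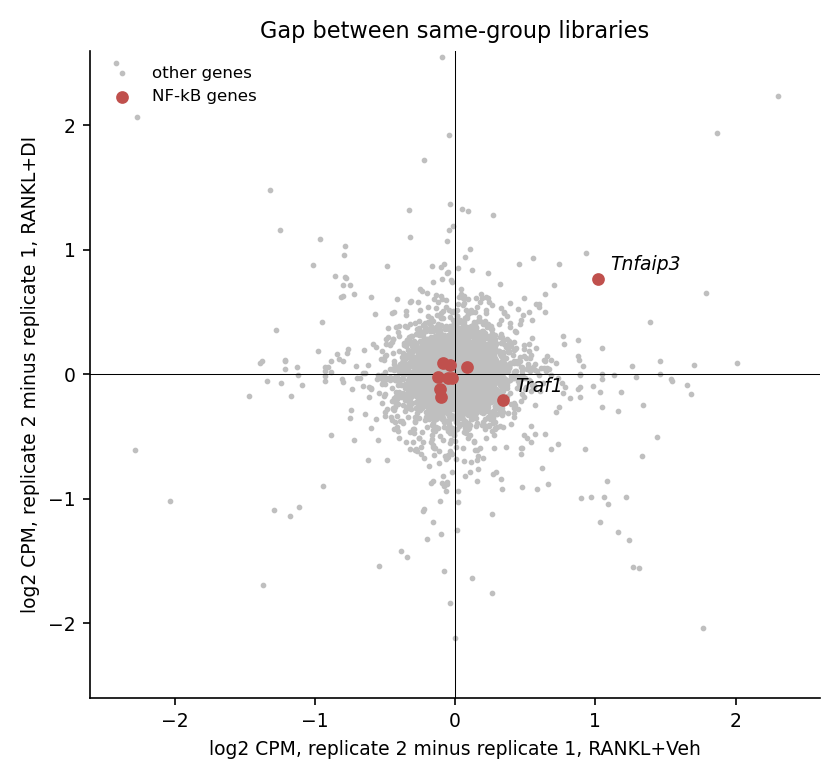
Gap between the libraries of a group for 9274 genes, as log2 CPM of replicate 2 minus replicate 1, in RANKL+Veh (x axis) and in RANKL+DI (y axis). The NF-kB genes are red and lie near 0 except Tnfaip3, at 1.02 and 0.77. Of the 9274 genes, 9 lie beyond the axes, which end at 2.6, and are not seen.

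Levels can be compared between genes only per length. Per kilobase of the transcript with the longest coding sequence, the mean level in RANKL+Veh ran from 96.3 CPM per kilobase for Nfkbia over 59.7 for Nfkb2, 36.5 for Rela, 31.0 for Nfkb1, 27.3 for Traf1, 20.3 for Relb, 14.8 for Tnfaip3, 13.8 for Bcl3 and 9.69 for Rel to 3.19 for Nfkbiz. On this scale the inhibitor Nfkbia thus stood above each of the subunit genes, and the nuclear IkB gene Nfkbiz stood lowest. Neighbours in this order did not always differ beyond their spread. The values of Nfkb1 (32.1 and 29.9) and Traf1 (24.1 and 30.5) overlapped, and those of Tnfaip3 (9.79 and 19.9) spanned those of Bcl3 (14.2 and 13.3) and reached into those of Relb (21.02 and 19.6). In RANKL+DI, Traf1 stood at 12.9 CPM per kilobase, below Relb and Tnfaip3, both at 16.2.

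The deposited FPKM values gave another order below the third gene. Nfkbia (99.8), Nfkb2 (57.4) and Rela (37.8) led there too, but Rel (10.04) stood above Relb (8.40), Nfkb1 (8.15), Traf1 (7.27), Bcl3 (7.26), Tnfaip3 (4.86) and Nfkbiz (1.90). The gene length behind these FPKM values was 16227 bases for Nfkb1 and 13958 bases for Tnfaip3, where the coding transcripts have 4117 and 4422 bases. For Rela and Rel both lengths were the same, at 2716 and 7466 bases. The places of Nfkb1, Traf1, Relb, Tnfaip3 and Bcl3 beside Rel therefore depended on the length used. These genes stood below Rel by FPKM and above it per kilobase of the coding transcript. Fold changes of single genes between the groups do not depend on the length used.

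**Figure D4:**
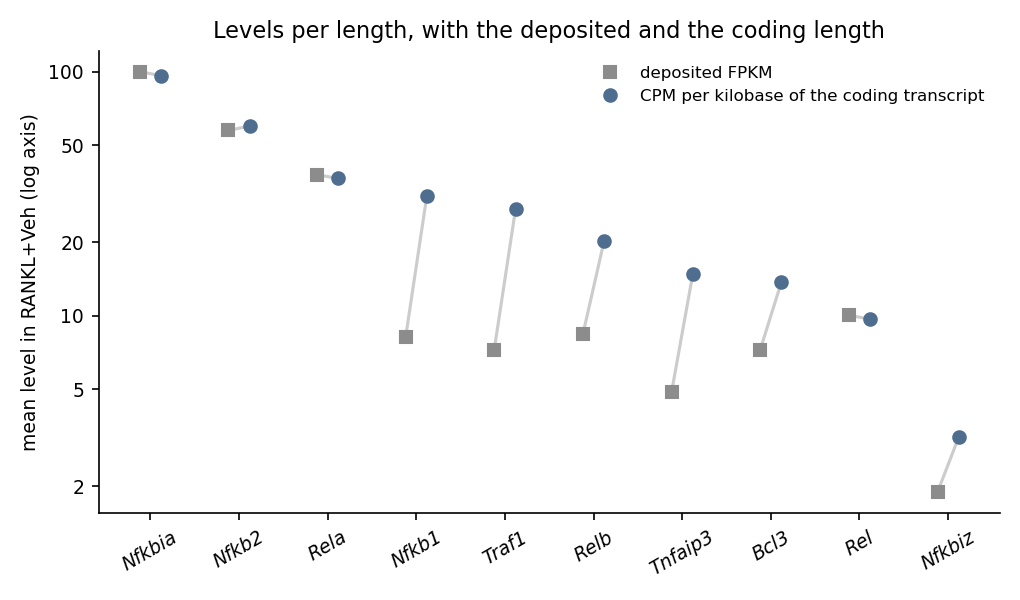
Mean level of each gene in RANKL+Veh on a log axis, as deposited FPKM (squares) and as CPM per kilobase of the coding transcript (circles). Nfkb1 moves from 8.15 to 31.0, Traf1 from 7.27 to 27.3 and Tnfaip3 from 4.86 to 14.8. Relb moves from 8.40 to 20.3, Bcl3 from 7.26 to 13.8 and Nfkbiz from 1.90 to 3.19, while Nfkbia, Nfkb2, Rela and Rel stay close.

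The balance of inhibitor to subunit was read as a ratio of levels. The ratio of Nfkbia to Rela, from FPKM, was 2.04 and 1.89 in RANKL+DI and 2.65 and 2.63 in RANKL+Veh. The groups were separate, with a difference of -0.43 on the log2 scale and a two-sided exact permutation p of 0.333, the smallest that 2 libraries against 2 can give. The ratio of the genes of the slower arm to those of the first (Relb plus Nfkb2 to Rela plus Nfkb1) was 1.30 and 1.22 in RANKL+DI and 1.42 and 1.44 in RANKL+Veh. These groups were separate too, at the same p. On the coding-transcript scale the mean of this ratio in RANKL+Veh was 1.19 rather than 1.43. Its difference between the groups was -0.14 on the log2 scale there, against -0.18 from FPKM. The ratio of Nfkb2 to Nfkb1 was 6.71 and 7.15 with DI and 6.85 and 7.26 with vehicle and overlapped. It was 1.93 rather than 7.06 in RANKL+Veh on the coding-transcript scale.

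Genes upstream of NF-kB were called in both directions. Of 22 receptor, adaptor and kinase genes tested, 3 were lower, 3 were higher and 16 did not pass. Of all tested genes, 7.70% were lower and 7.14% were higher. The median log2 fold change of the 22 was -0.01. Tnfrsf11a, which encodes RANK, the receptor of RANKL, stood at 105.6 and 112 CPM in RANKL+DI and at 139.9 and 138 CPM in RANKL+Veh. It fell by 21.5% (log2 fold change -0.35, SE 0.050, adjusted p 0.00834 by edgeR). The adaptor Traf2 fell by 26.4% and Birc3, which encodes the ubiquitin ligase cIAP2, by 19.1%. Both TNF receptor genes rose: Tnfrsf1b by 54.1%, from 577 and 591 CPM to 904 and 895 CPM (adjusted p 5.6e-04, edgeR), and Tnfrsf1a by 13.6%. Ikbkg, the scaffold of the IkB kinase, rose by 36.5%. It overlaps G6pdx on the opposite strand over 5.15% of its exon length, with 30969 counts for G6pdx and 8218 for Ikbkg, and without strand the reads of the pair cannot be told apart. The kinase genes did not pass the test, with Chuk at -0.03, Ikbkb at -0.12 and Map3k14, whose product starts the slower arm, at -0.02 on the log2 scale. Without RANKL+Veh replicate 1, 1 of the 22 genes was lower.

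Of 17 other IkB genes and negative regulators of the pathway, 3 were lower, 2 were higher and 12 did not pass. The shares of all tested genes were 7.70% lower and 7.14% higher. The median log2 fold change of the 17 was 0.01. Those lower were Tnip3 and Tnip1, which encode partners of A20 (log2 fold changes -0.32 and -0.24), and N4bp1 (-0.29). Those higher were Otulin, which removes linear ubiquitin chains (0.30), and Rnf11, another A20 partner (0.31). The other classical IkB genes did not pass the test, with log2 fold changes of 0.01 for Nfkbib and -0.04 for Nfkbie, beside -0.49 for Nfkbia. The number lower on this list was 1 without RANKL+DI replicate 2, 1 without RANKL+Veh replicate 1 and 0 without RANKL+Veh replicate 2.

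Among 28 genes known as NF-kB targets, 23 had enough reads to be tested. Of these, 5 were lower, 2 were higher and 16 did not pass, against 7.70% lower and 7.14% higher of all tested genes. The median log2 fold change of the 23 was -0.11. In 13 of the 23, both RANKL+DI libraries lay below both RANKL+Veh libraries, against 29.6% of all tested genes. The same held for 4 of the 22 upstream genes and 5 of the 17 negative regulators. These lists were chosen with earlier results of these data known, so the counts describe them and test no excess. Mmp9, a matrix protease of osteoclasts, stood at 30.5 and 26.5 CPM in RANKL+DI and at 90.9 and 86.2 CPM in RANKL+Veh. It fell by 67.8% (adjusted p 5.4e-04, edgeR). Nfatc1, the transcription factor that drives osteoclast differentiation, fell by 25.8%, from 108 and 105 CPM to 80.5 and 77.5 CPM. Birc3 (19.1%) and Malt1 (14.4%), a scaffold of antigen receptor signaling, fell less. Tnfaip2 rose by 13.4% and Plau, which encodes urokinase, by 16.3%. The chemokine and cytokine genes tested were not called, and on the log2 scale Tnf gave 0.01, Ccl2 gave -0.21, Ccl3 gave 0.14 and Cxcl2 gave -0.11. The number of targets lower was 2 without RANKL+Veh replicate 1 and 3 without RANKL+Veh replicate 2.

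The NF-kappa B pathway of KEGG, as annotated by the authors, held 93 of the genes, 7 of the 10 among them. Rel, Nfkbiz and Bcl3 were not in it. The lists share genes: Traf2, Tnfrsf11a and Ikbkg, counted above as upstream, are in this pathway too. Birc3 is on both the upstream and the target list. Of the 86 other genes of the pathway, 67 were tested. Of these, 10 were lower, 7 were higher and 50 did not pass, against 7.70% lower and 7.14% higher of all tested genes. The median log2 fold change of the 67 was -0.01. In 17 of the 67, both RANKL+DI libraries lay below both RANKL+Veh libraries, against 29.6% of all tested genes. Among those called, the lowest were Ddx58, the gene of the RNA sensor RIG-I (-0.84), and Cd14, a co-receptor of LPS (-0.51), followed by Traf2 and Tnfrsf11a. The highest called was Prkcb, a protein kinase C gene (0.79), at 139 and 116 CPM with DI and 73.0 and 74.3 CPM with vehicle. The survival gene Bcl2 (0.54) was higher too. The value of Bcl2a1b (0.60) is uncertain, because its whole transcript matches those of Bcl2a1a and Bcl2a1d. The best matching stretch is 98.2% identical for Bcl2a1a and 99.1% for Bcl2a1d. Bcl2a1b also shares 49.1% of its exon length with Gm29094 on the same strand. The number lower was 3 without RANKL+Veh replicate 1 and 6 without RANKL+DI replicate 2.

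**Figure D5:**
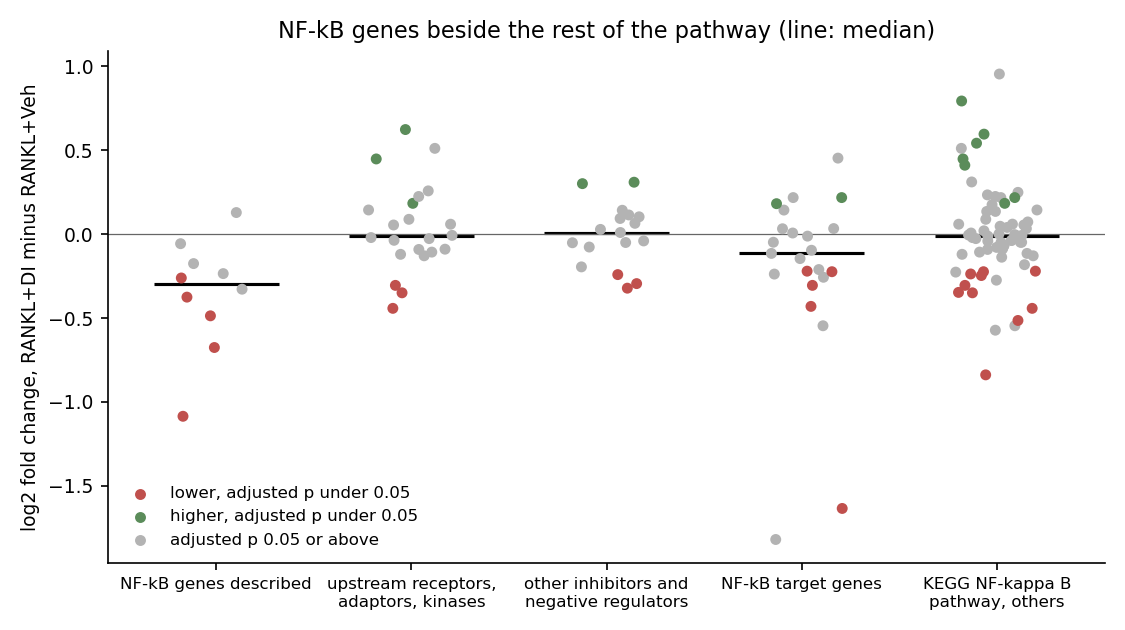
Log2 fold change (y axis, RANKL+DI minus RANKL+Veh) of the 10 NF-kB genes and of the tested genes of 4 lists, each point a gene, red or green for lower or higher at an adjusted p under 0.05, with a line at the median. The median of the 10 genes is -0.29, and those of the lists lie between -0.11 and 0.01. The lists share some genes.

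Markers of cell state moved alongside. Some genes named above are among them: Cd14 is a macrophage marker, and Mmp9 and Nfatc1 are osteoclast markers, all called lower. Of 8 macrophage markers 5 were higher and 2 were lower, against 7.14% and 7.70% of all tested genes. The summed level of the 8 markers was 28440 and 29260 CPM in RANKL+DI and 23130 and 22260 CPM in RANKL+Veh. Lyz2, the lysozyme gene, made up 79.1% to 81.3% of this sum, and the other 7 genes summed to 5670 and 5472 CPM with DI and 4836 and 4631 CPM with vehicle. Of 9 osteoclast markers 7 were tested, of which 5 were lower and 1 was higher, against 7.70% and 7.14% of all tested genes. The summed level of the 9 markers was 690 and 678 CPM in RANKL+DI and 738 and 715 CPM in RANKL+Veh, with Calcr at 0 in all 4 libraries. Atp6v0d2, a proton pump gene and the one called higher, held 57.8% to 75.1% of this sum. Without it the osteoclast markers summed to 181.5 and 168.6 CPM with DI and 311 and 297 CPM with vehicle. In bulk RNA, fewer cells of a type and less RNA per cell cannot be told apart, and the part of these shifts in the NF-kB genes was not tested. Among other cells, B cell markers summed to 21.3 and 23.5 CPM with DI and 10.7 and 11.8 CPM with vehicle. This sum was nearly all Ighm, the only one of 6 with enough reads, which was called higher, while Pax5 was at 0 in all libraries. The markers of T and NK cells (2 of 8 tested), neutrophils (3 of 8), mast cells and basophils (1 of 6) and stromal cells (5 of 6) gave no call, and none of 5 erythroid markers could be tested. Their summed levels ranged from 1.97 to 3.002 CPM, from 8.05 to 10.3 CPM, from 0.37 to 1.57 CPM, from 41.4 to 51.3 CPM and, for erythroid cells, from 0.06 to 0.27 CPM. Among the genes at 0 in all libraries were Cd3e, Cd3g, Cd8a, Trac and Ncr1, Ly6g, the mast cell and basophil genes Mcpt8, Fcer1a and Tpsb2, Lepr, and the globin genes Hba-a1 and Hbb-bs.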

How the data were processed

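RNA was sequenced from 4 libraries of BMMs, grouped by their labels. The authors deposited unnormalized read counts for each gene, one column a library, and FPKM values. The FPKM values equalled counts divided by a gene length and the library total, with a largest relative deviation of 0.000327. Both deposited tables hold the same counts in all 138980 cells. The aligner and counter are not given in the sources used here, and the build is GRCm38 (mm10) in the submitters' processing notes. Totals ran from 16085692 to 19403480 counts per library.

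The test was run with edgeR 4.0.16 under R 4.3.3 (TMM factors, default filter on low counts, quasi-likelihood test, condition as the only term, Benjamini-Hochberg adjustment over 12590 genes). The 95% intervals used the moderated 5.947 degrees of freedom, 2 of them residual. Alternatives were edgeR's exact test, limma-voom from limma 3.58.1, the Wald test of DESeq2 1.42.0, size factors as in DESeq2, library size only, no filter, the replicate number as a block and each library left out in turn. Levels per kilobase of the coding transcript were added after the data were seen. The steps were tested on simulated data.

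The 10 genes and the lists were chosen with earlier results of these data known. From the lists, up to 4 genes with the lowest and 4 with the highest log2 fold changes among called genes with separate groups were named. Genes that did not pass, and genes of the marker lists, were named beyond this rule after their values were seen. Some marker genes are not reported here. Gene positions are those of the deposited table. Exons were compared with GENCODE M21, and transcripts by BLAST+ 2.17.0.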

Additional observations from a re-analysis of the deposited data

How the results depend on the processing

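With scaling by library size only, 8 of the 10 genes were lower, as were 8 of the targets and 1932 of all genes, while 1 negative regulator, 0 targets, 4 other KEGG genes and 548 of all genes were higher. With edgeR's exact test 6 other KEGG genes were lower, and 1 negative regulator and 0 targets were higher. With each library left out in turn, the number lower ran from 2 to 6 for the 10 genes, from 1 to 3 upstream, from 0 to 2 for the negative regulators, from 2 to 4 for the targets, from 3 to 9 for the other KEGG genes and from 529 to 712 for all genes. The number higher ran from 0 to 1 for the negative regulators, was 1 for the targets throughout and ran from 558 to 682 for all genes. The log2 fold change of Tnfaip3 ran from -0.31 to 0.73 and reversed without RANKL+DI replicate 2 (-0.31) and without RANKL+Veh replicate 1 (-0.30). Leaving out a library leaves fewer samples by construction, and for the other settings the cause was not tested.

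The labels do not pair the libraries by replicate number. The gaps between replicates 2 and 1 had a correlation of -0.0302 between the groups across 12590 genes, which share the same libraries. With the replicate number as a block, 6 of the 10 genes were lower, since Relb (adjusted p 0.0483) and Nfkb1 (0.0458) passed and Bcl3 (0.0792) did not. Of all genes, 704 were lower and 685 were higher with the block. On the coding-transcript scale the ratio of Relb plus Nfkb2 to Rela plus Nfkb1 in RANKL+Veh was 1.186 and that of Nfkb2 to Nfkb1 was 1.928. No other setting turned the direction of any of the 10 genes. Traf1 and Nfkbia were called lower, and Rela and Tnfaip3 were not called, under all 11 alternatives. Rel was called lower with library size only (adjusted p 0.0306) and under no other alternative. Nfkbiz rests on 142 to 255 counts per library.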

Other observations

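Other genes differed between replicates 1 and 2 in the same direction in both groups, as Tnfaip3 did. With replicate 2 higher in both groups, the genes with the largest gaps were Gm608 (4.73-fold in RANKL+DI and 4.91-fold in RANKL+Veh) and Emp1 (3.83-fold and 3.65-fold), and Nr3c1, the glucocorticoid receptor gene, was 1.65-fold and 1.63-fold higher. With replicate 2 lower in both groups, the ratio was 0.311 and 0.387 for 2610001J05Rik and 0.454 and 0.443 for Pogk. These genes were chosen after their values were seen.

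The gene length behind the deposited FPKM values was within 1% of the summed length of all distinct annotated exons, with overlapping exons counted repeatedly, for 67.6% of 13882 genes with more than 1 transcript, and within 1% of the length of merged exons for 1.84%. For Tnfaip3 it was 1.93 times, for Traf1 1.51 times and for Nfkb1 1.35 times the merged length, while for Rela (0.884) and Nfkb2 (0.738) it was shorter than the merged length.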
